A study of Saccharomyces cerevisiae with 44 samples.

Results

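The transcripts described here belong to 47 genes of the G1/S wave of budding yeast, the genes that are switched on as cells leave G1 and start to copy their DNA. They were chosen by name from the known functions of their products, with no measured value in the rule. The choice was made with earlier results of these data known, so shares set against all features below are descriptions. The set makes up 47 of the 7127 features in the count table. The set holds 8 transcription regulators, 2 cell cycle control proteins, 8 proteins of origin licensing and the replicative helicase, 7 subunits of DNA polymerases and primase, 10 replication fork and chromatin factors, 5 enzymes of nucleotide supply, 2 cohesin subunits and 5 checkpoint and repair proteins. All 47 passed the filter on low counts in every comparison, and R64, the reference genome of the laboratory strain S288C, gives each the same symbol and no overlapping gene.

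In a dividing yeast cell, G1 cyclins bound to the kinase Cdc28 release transcription by SBF (Swi4 with Swi6) and MBF (Mbp1 with Swi6) at the end of G1. MBF binds the MluI cell cycle box of many replication genes, and SBF binds the Swi4/6 cell cycle box of many cyclin and cell wall genes. A neighbouring group that includes SWI4, CDC6 and the MCM genes is controlled at the border of M and G1 by Mcm1, with the repressors Yox1 and Yhp1. Mating pheromone acts through the transcription factor Ste12, with Kar4 as a partner at some genes, and also holds cells in G1 by blocking G1 cyclin-kinase complexes.

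RNA sequencing was done on MATa cells that were already arrested in G1 before pheromone was added. Strain VM05, called WT, carries ade1, bar1, cln1, cln2, cln3, his2, trp1 and ura3 mutations and has CLN3 under the GAL promoter (GAL-CLN3, at leu2 with LEU2). Moving it at 30 °C from galactose to glucose for 3 h represses the GAL promoter and arrests the cells in G1. Cells were then given 20 µM alpha-factor, the pheromone of the opposite mating type, for 60 min, or were frozen untreated. The other strains were the same but for 1 gene replaced with KanMX: ∆Kar4 (ACY01, kar4::KanMX), ∆Ste12 (ACY02, ste12::KanMX) and ime4 (ACY13, ime4::KanMX, without the mRNA methyltransferase Ime4). Each is 1 strain, and every group shares the cyclin and bar1 mutations, so the pheromone response of cells with G1 cyclins was not measured.

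∆Kar4, ∆Ste12 and WT each had 4 alpha-factor and 4 untreated libraries, 2 per condition in batch 1 and 2 in batch 2. Batch 3 held ime4 and WT with 4 columns per condition, labelled as replicates, which fell into near-identical pairs. Each pair was averaged and taken as 1 library, giving 2 libraries per condition. Batch 4 held WT with 2 libraries per condition, where the untreated cells also waited 60 min. In batches 1, 2 and 3 the untreated cells were taken at 0 min after the arrest. In these batches alpha-factor and 60 min more of arrest therefore cannot be told apart, and a response means treated against untreated cells. Libraries had 4248479 to 15631285 counts in batch 1, 8265593 to 12669685 in batch 2, 9897947 to 17018507 in batch 3 and 14823127 to 22586602 in batch 4. The batch 3 values are means of 2 columns. Nothing in the labels says whether replicates of a group came from separate cultures, so p-values measure the spread between these samples, which may be technical.

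The deleted genes matched the labels. KAR4 had 0 to 2 counts in every ∆Kar4 library, against 482, 434, 324 and 335 CPM in WT with alpha-factor. CPM is the count normalised to library depth, here after TMM scaling, edgeR's correction of library totals for composition. STE12 had 0.513, 0.408, 4.95 and 6.24 CPM in ∆Ste12 with alpha-factor, against 336, 296, 326 and 336 CPM in WT. The ∆Ste12 libraries had 3 to 10 STE12 counts in batch 1 and 23 to 64 in batch 2, and the source of these reads was not tested. IME4 had 3 to 8 counts per library in ime4, against 263 and 251 CPM in WT of batch 3 with alpha-factor.

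The 6 a-cell markers summed to 3961 to 4926 CPM in ∆Kar4 with alpha-factor, to 518 to 756 CPM in ∆Ste12 and to 3507 to 5293 CPM in WT. BAR1, mutated in all strains, had at most 2 counts. The 4 alpha-cell markers summed to 3232 to 3569 CPM in ∆Kar4 with alpha-factor, to 100.3 to 125 CPM in ∆Ste12 and to 169 to 252 CPM in WT; most of the ∆Kar4 sum was SAG1, and the alpha-cell receptor STE3 had 13.2, 16.3, 10.3 and 11.9 CPM there. The part of these shifts in the results below was not tested. In bulk RNA, fewer cells expressing a gene and less RNA per cell cannot be told apart.

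Promoter sequences were read for all 47 genes from RefSeq R64, which has the chromosome lengths of sacCer3, the build in the submitters' processing notes. These are S288C sequences, not those of VM05. In the 300 bases before the start codon, on either strand, the MluI cell cycle box (ACGCGT) occurred in 27 of the 47 genes (57.4%) and in 209 of 6001 nuclear protein-coding genes (3.48%). The Swi4/6 cell cycle box (CGCGAAA or CACGAAA) occurred in 12 (25.5%), against 500 (8.33%) of all. The pheromone response element bound by Ste12 (TGAAACA) occurred in 6 (12.8%), namely PLM2, HCM1, POL12, PRI2, CTF4 and ASF1, against 432 (7.2%) of all. A match of letters is not a measured binding site.

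The 7 stretches below are shown because their genes carry the results that follow: YOX1, RNR1 and CDC6 had the largest declines in WT, CTF4 and POL30 were among the largest rises, and PLM2 and YHP1 had the largest differences between ∆Kar4 and WT. Each runs 5′ to 3′ on the gene's strand from 300 to 101 bases before the start codon, with capitals for any of the 3 motifs on either strand.
YOX1, chrXIII:221106-221305, plus strand: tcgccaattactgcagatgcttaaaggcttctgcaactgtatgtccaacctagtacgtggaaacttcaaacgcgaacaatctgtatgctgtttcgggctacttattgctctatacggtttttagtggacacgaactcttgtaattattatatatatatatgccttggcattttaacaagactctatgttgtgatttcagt
RNR1, chrV:298650-298849, plus strand: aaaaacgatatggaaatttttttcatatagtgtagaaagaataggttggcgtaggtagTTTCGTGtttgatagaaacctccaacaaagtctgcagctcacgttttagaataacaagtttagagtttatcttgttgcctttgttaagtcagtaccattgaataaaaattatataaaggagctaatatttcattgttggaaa
CDC6, chrX:69038-69237, plus strand: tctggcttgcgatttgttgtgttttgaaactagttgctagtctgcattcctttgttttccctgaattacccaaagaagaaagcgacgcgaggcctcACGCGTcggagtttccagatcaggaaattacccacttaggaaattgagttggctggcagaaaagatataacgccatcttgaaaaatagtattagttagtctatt
CTF4, chrXVI:798934-799133, plus strand: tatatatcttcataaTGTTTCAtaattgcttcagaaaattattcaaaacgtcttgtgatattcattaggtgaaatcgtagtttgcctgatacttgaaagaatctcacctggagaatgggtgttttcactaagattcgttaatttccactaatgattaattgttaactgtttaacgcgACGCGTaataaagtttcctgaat
POL30, chrII:425867-426066, minus strand: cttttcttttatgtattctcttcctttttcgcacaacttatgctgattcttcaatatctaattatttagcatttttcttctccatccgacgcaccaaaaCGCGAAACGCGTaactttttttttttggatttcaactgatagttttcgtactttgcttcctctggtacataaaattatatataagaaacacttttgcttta
PLM2, chrIV:1451053-1451252, plus strand: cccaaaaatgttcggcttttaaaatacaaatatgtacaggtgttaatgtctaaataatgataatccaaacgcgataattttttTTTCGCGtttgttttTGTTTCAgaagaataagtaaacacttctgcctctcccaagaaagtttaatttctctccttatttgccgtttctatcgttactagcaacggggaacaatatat
YHP1, chrIV:1362282-1362481, minus strand: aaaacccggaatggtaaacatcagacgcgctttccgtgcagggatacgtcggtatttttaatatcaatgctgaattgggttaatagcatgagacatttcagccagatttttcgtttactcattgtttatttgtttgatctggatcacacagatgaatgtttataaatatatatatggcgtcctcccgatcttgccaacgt

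RNR1 held a Swi4/6 box (CACGAAA, read here on the other strand) and no MluI box. CDC6 held 1 MluI box. In POL30 a Swi4/6 box (CGCGAAA) ran into an MluI box and shared a base with it. CTF4 held an MluI box and a pheromone response element, and PLM2 a Swi4/6 box and a pheromone response element. In YOX1 and YHP1 none of the letters searched occurred in this window.

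The first comparison set WT cells given alpha-factor for 60 min against untreated WT cells that had not waited, all already arrested in G1. In batches 1 and 2, 21 of the 47 genes were higher with alpha-factor and 9 lower, with 17 not called (edgeR, adjusted p under 0.05). Of all 6161 features tested, 29% were called higher and 30% lower, so the share of these genes called higher, 44.7%, lay above that background and the share called lower, 19.1%, below it. The median log2 fold change was 0.22 over the 47 genes and -0.0017 over all features. The declines sat among the transcription regulators, licensing factors, polymerase subunits and RNR1, while the fork factors and the checkpoint and repair genes contributed 13 of the rises and no decline.

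**Figure D1:**
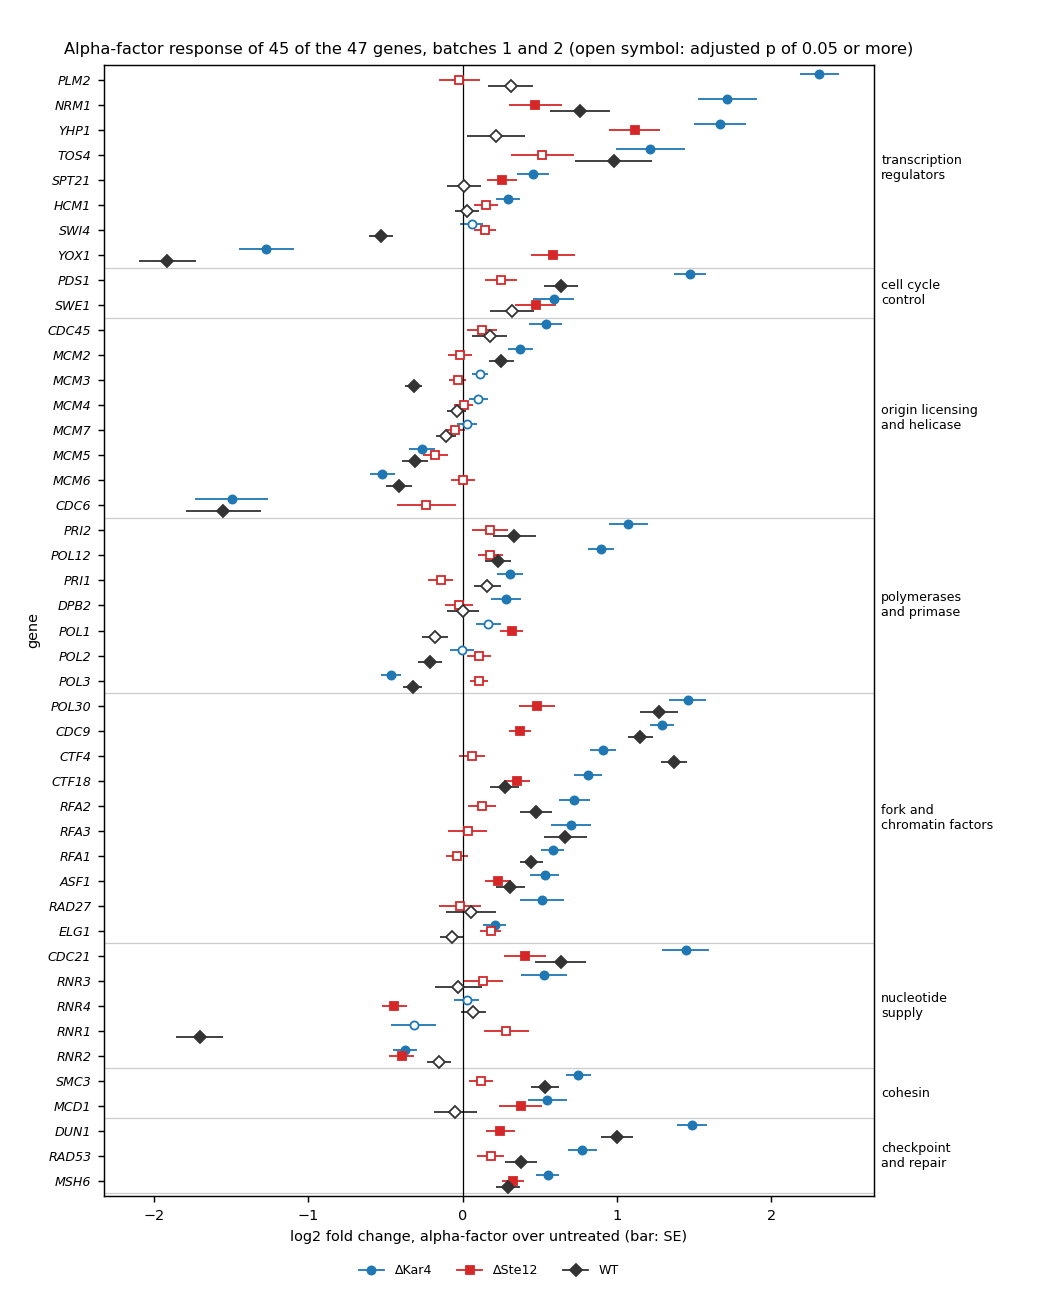
Log2 fold change of alpha-factor over untreated for 45 of the 47 genes in ∆Kar4 (circles), ∆Ste12 (squares) and WT (diamonds), batches 1 and 2, with bars for the SE and open symbols where the adjusted p was 0.05 or more. Genes run down the page by role and, within a role, by the ∆Kar4 value; the ∆Ste12 symbols lie closer to 0 than the others for YOX1, CDC6 and CTF4.

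Among the transcription regulators, the homeodomain repressor YOX1 (YML027W) changed most. It had 14.0, 7.49, 12.4 and 11.2 CPM in WT with alpha-factor, against 49.2, 32.3, 34.1 and 50.9 CPM untreated. Every treated library lay below every untreated one, by a log2 fold change of -1.91 (SE 0.18, adjusted p = 5.46e-09). SWI4 (YER111C), the DNA-binding subunit of SBF, described in full after its values were seen, fell to 80.0, 67.8, 90.5 and 86.3 CPM, against 105, 115, 111 and 136 CPM untreated (-0.53, SE 0.077, adjusted p = 2.96e-06). The groups did not overlap here either, although the change was small. NRM1 (YNR009W), the co-repressor of MBF, rose (0.76, SE 0.19, adjusted p = 0.0018), as did TOS4 (YLR183C), a forkhead-associated protein found at G1/S promoters (0.98, SE 0.25, adjusted p = 0.00161; 12 to 25 counts per untreated library). The other 4 were not called: PLM2 (YDR501W), a paralog of TOS4, at 0.31, YHP1 (YDR451C), the partner of Yox1, at 0.22, the forkhead factor HCM1 (YCR065W) at 0.029, and SPT21 (YMR179W), needed for histone gene transcription, at 0.0085.

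Of the cell cycle control genes, PDS1 (YDR113C), the securin that holds back sister chromatid separation, rose. It had 32.9, 36.8, 21.8 and 23.3 CPM in WT with alpha-factor, against 20.3, 18.7, 15.6 and 17.8 CPM untreated (0.64, SE 0.11, adjusted p = 3.2e-05), and the groups did not overlap. SWE1 (YJL187C), the kinase that inhibits Cdc28, was not called (0.32, adjusted p = 0.0545).

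Of the 8 licensing factors, 4 fell and 1 rose. CDC6 (YJL194W), which loads the MCM helicase at origins, had 1.72, 4.20, 1.87 and 2.72 CPM in WT with alpha-factor, against 11.4, 9.59, 6.15 and 5.90 CPM untreated. These are 8 to 32 and 49 to 63 counts per library, and the treated libraries all lay below the untreated ones (-1.55, SE 0.24, adjusted p = 8.94e-06). Of the 6 helicase subunits, MCM3 (YEL032W), MCM5 (YLR274W) and MCM6 (YGL201C) fell by 0.32, 0.31 and 0.41 on the log2 scale, and MCM2 (YBL023C) rose by 0.25. MCM4 (YPR019W), MCM7 (YBR202W) and the helicase activator CDC45 (YLR103C) were not called, at -0.038, -0.11 and 0.18. The subunits of 1 complex therefore did not move as a block, and the sizes were small beside that of CDC6.

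Of the 7 polymerase and primase genes, 2 rose and 2 fell. PRI2 (YKL045W), the large primase subunit, had 8.81, 9.46, 10.3 and 10.5 CPM in WT with alpha-factor, against 9.56, 7.23, 7.19 and 7.78 CPM untreated, and the groups overlapped. Its rise (0.33, SE 0.14, adjusted p = 0.0442) was only just called: the adjusted p was 0.0514 with DESeq2 and 0.0552 to 0.123 without WT untreated replicate 2, 3 or 4 or WT alpha-factor replicate 2, 3 or 4. POL12 (YBL035C), of polymerase alpha, rose by 0.23 (lost without replicate 1 or 3 of either condition), and the catalytic subunits POL2 (YNL262W, polymerase epsilon) and POL3 (YDL102W, polymerase delta) fell by 0.21 and 0.32. POL1 (YNL102W), the catalytic subunit of polymerase alpha, the small primase subunit PRI1 (YIR008C) and the polymerase epsilon subunit DPB2 (YPR175W) were not called, at -0.18, 0.16 and 0.0026.

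Of the 10 fork and chromatin factors, 8 rose and none fell. CTF4 (YPR135W), which ties the helicase to polymerase alpha, had 67.3, 66.3, 81.2 and 67.9 CPM in WT with alpha-factor, against 25.7, 28.9, 26.1 and 28.9 CPM untreated. The lowest treated library lay well above the highest untreated one (1.37, SE 0.086, adjusted p = 3.11e-12). POL30 (YBR088C), the sliding clamp PCNA, and CDC9 (YDL164C), the DNA ligase that seals Okazaki fragments, followed at 1.27 (SE 0.12) and 1.15 (SE 0.081). The 3 subunits of the single-strand binding protein RPA, RFA1 (YAR007C), RFA2 (YNL312W) and RFA3 (YJL173C), rose by 0.45, 0.48 and 0.66. CTF18 (YMR078C), of an alternative clamp loader, rose by 0.27, and the histone chaperone ASF1 (YJL115W) by 0.31. The clamp unloader ELG1 (YOR144C) and the flap nuclease RAD27 (YKL113C) were not called, at -0.07 and 0.054.

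Of the 5 nucleotide supply genes, 1 fell and 1 rose. RNR1 (YER070W), the large subunit of ribonucleotide reductase, had 81.9, 80.1, 149.9 and 109 CPM in WT with alpha-factor, against 358, 336, 317 and 332 CPM untreated. The treated libraries all lay below the untreated ones (-1.70, SE 0.15, adjusted p = 1.55e-09), at 105 ± 32.6 against 336 ± 16.5 CPM (SD, n = 4 each). CDC21 (YOR074C), the thymidylate synthase, rose (0.64, SE 0.17, adjusted p = 0.00231). The small subunits RNR2 (YJL026W) and RNR4 (YGR180C) and the damage-inducible large subunit RNR3 (YIL066C) were not called, at -0.15, 0.07 and -0.027. Per kilobase of coding sequence, RNR4, RNR2 and RNR1 were the 3 highest of the 47 in untreated WT, at 520.2, 359 and 126 CPM, and TOS4 was the lowest at 1.69 CPM.

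Of the cohesin subunits, SMC3 (YJL074C) rose and MCD1 (YDL003W) was not called (-0.047). SMC3 had 30.5, 34.6, 21.9 and 22.3 CPM in WT with alpha-factor, against 22.4, 20.7, 16.0 and 16.1 CPM untreated (0.54, SE 0.089, adjusted p = 1.91e-05). Its pooled groups overlapped, and batch 1, the first pair in each list, ran higher in both conditions; within each batch every treated library was above every untreated one.

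All 5 checkpoint and repair genes rose. The checkpoint kinases DUN1 (YDL101C) and RAD53 (YPL153C) rose by 1.00 and 0.38, and the mismatch repair gene MSH6 (YDR097C) by 0.29.

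An MluI box stood before 15 of the 21 genes that rose in WT, before 3 of the 9 that fell and before 9 of the 17 not called. Of the 6 genes with a pheromone response element, 4 rose and none fell, where 21 of all 47 genes rose and 9 fell. Among these rises, those of POL12 and PRI2 lost their call without some single libraries. In ASF1 the element lies 22 bases before the start codon, where transcript starts are not annotated. All of these counts describe the letters in the window, with no test. Scaling by library totals in place of TMM moved the median of all features by -0.17 and gave 14 of the 47 genes lower, and in batch 1 alone 13 were higher.

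The next comparisons asked how loss of Kar4 altered these genes. Before alpha-factor, few of these genes differed between ∆Kar4 and WT: 1 of the 47 genes was called higher and 0 lower in ∆Kar4, where 5.84% and 6.12% of all features were called. An unadjusted p under 0.05 held for 7 genes, and the share of all features at that threshold is not given here. The called gene was SMC3 (0.28, SE 0.089, adjusted p = 0.0381), and the call was lost with DESeq2 (adjusted p = 0.0564), with library totals, in either batch alone, and without any untreated library of either strain but ∆Kar4 replicate 1.

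With alpha-factor, 33 of the 47 genes rose in ∆Kar4 and 6 fell (edgeR; 33% and 32.8% of all features), with a median log2 fold change of 0.54. All 21 genes that rose in WT also rose in ∆Kar4, and their medians were 0.90 in ∆Kar4 and 0.54 in WT. This set was picked by its call in WT, so the medians are descriptions. Of the 9 that fell in WT, 5 fell in ∆Kar4 (YOX1, CDC6, MCM5, MCM6 and POL3); the other called decline in ∆Kar4 was RNR2 (-0.37). Levels after alpha-factor were higher in ∆Kar4 than in WT for 25 genes and lower for 3 (among them CTF4 and RNR2), against 16.8% and 21.1% of all features. The response itself, tested as an interaction, was larger in ∆Kar4 for 15 genes and smaller for 1 (CTF4), against 8.72% and 10.2% of all features. Its median difference was 0.27, with 41 of 47 values above 0, and -0.019 over all features.

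**Figure D2:**
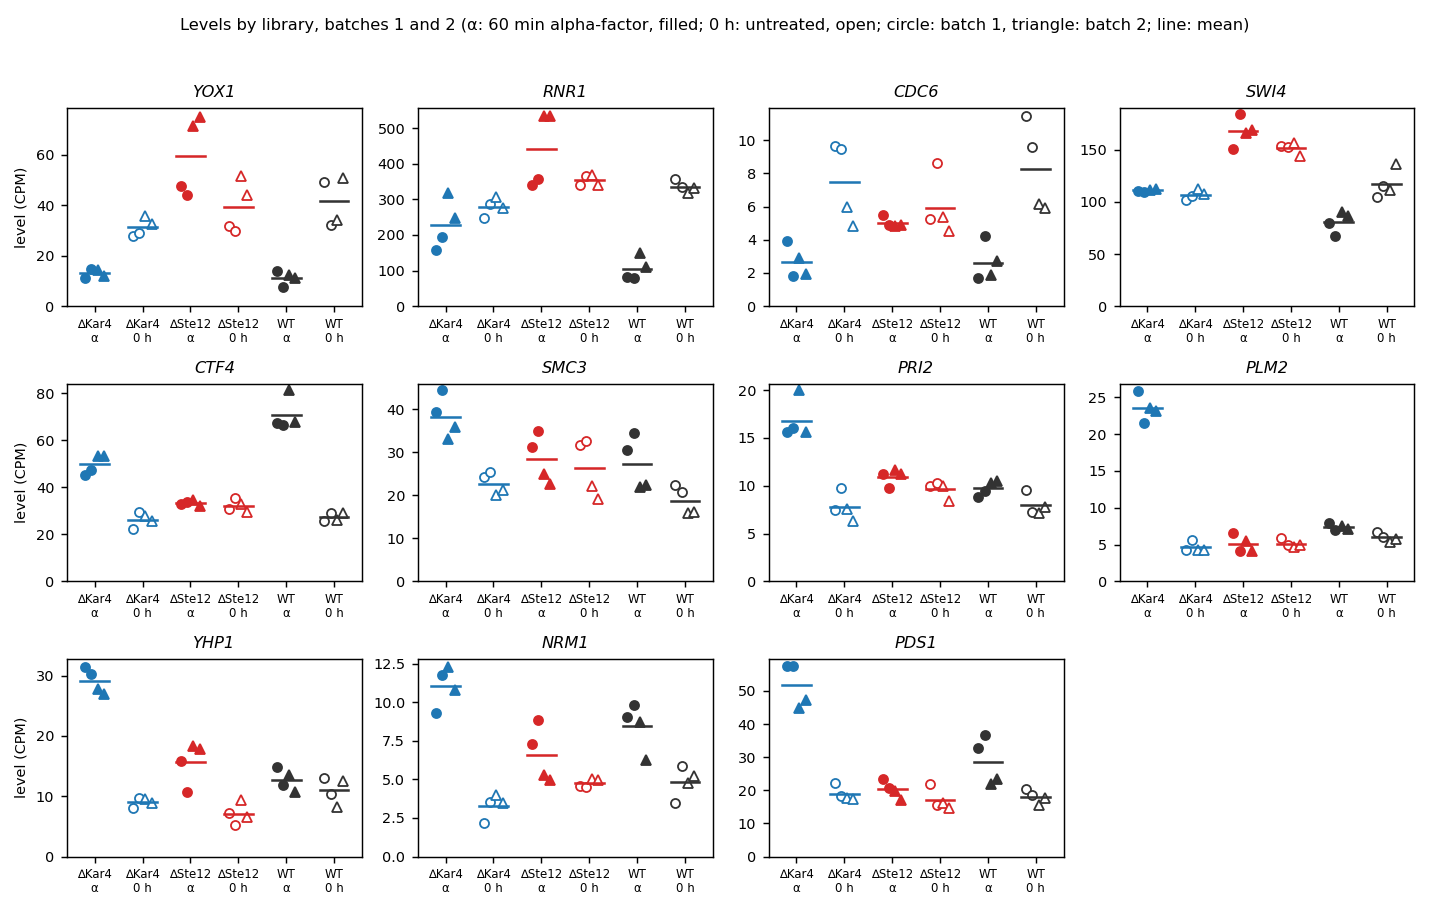
Level (CPM, linear axis from 0) of 11 of the genes in each library of batches 1 and 2, for ∆Kar4, ∆Ste12 and WT with alpha-factor (filled) and untreated (open); circles are batch 1, triangles batch 2 and lines the mean of 4 libraries. PLM2, YHP1 and PDS1 reach their highest levels in ∆Kar4 with alpha-factor, and YOX1, RNR1 and CDC6 with alpha-factor lie lower in WT than in ∆Ste12.

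The 2 largest response differences in ∆Kar4 were those of the transcription regulators PLM2 and YHP1. PLM2 had 25.8, 21.5, 23.5 and 23.2 CPM in ∆Kar4 with alpha-factor and 4.33, 5.61, 4.33 and 4.24 CPM untreated. In WT it had 7.95, 6.96, 7.47 and 7.08 CPM with alpha-factor and 6.76, 6.05, 5.32 and 5.81 CPM untreated. The 4 treated ∆Kar4 libraries stood far above all others, and the response differed by 2.00, SE 0.19, adjusted p = 6.04e-08. YHP1 had 31.5, 30.3, 27.8 and 27.0 CPM in ∆Kar4 with alpha-factor, against 7.99, 9.78, 9.47 and 8.95 CPM untreated, while WT had 14.8, 11.8, 13.6 and 10.6 CPM with alpha-factor and 13.1, 10.4, 8.24 and 12.5 CPM untreated. It rose in ∆Kar4 (1.67) and its response difference was 1.45, SE 0.25, adjusted p = 0.000161. NRM1 had 9.30, 11.7, 12.3 and 10.8 CPM in ∆Kar4 with alpha-factor, against 2.16, 3.52, 3.98 and 3.44 CPM untreated, and in WT 9.03, 9.85, 8.72 and 6.26 CPM with alpha-factor, against 3.50, 5.89, 4.80 and 5.25 CPM untreated. It rose in both strains, more in ∆Kar4 (0.96, SE 0.28, adjusted p = 0.0155), and its levels after alpha-factor were not called different (0.39, adjusted p = 0.0799).

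SWI4 had 111, 110.0, 112 and 113 CPM in ∆Kar4 with alpha-factor and 102, 105, 113 and 108 CPM untreated. Its decline in WT was thus not seen in ∆Kar4 (0.059, not called; difference 0.59, SE 0.11, adjusted p = 0.000293). YOX1, in contrast, fell in ∆Kar4 to 11.1, 14.6, 14.2 and 12.0 CPM, against 28.0, 28.8, 35.7 and 32.5 CPM untreated (-1.27), and its response difference from WT missed the threshold (0.64, SE 0.26, adjusted p = 0.0911); without WT alpha-factor replicate 1 or WT untreated replicate 3 it passed, at 0.80 and 0.79, and with DESeq2 it passed too (0.67, adjusted p = 0.049). SPT21 also responded more (0.45, adjusted p = 0.0406), but not in either batch alone.

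RNR1 had 157, 195, 317 and 248 CPM in ∆Kar4 with alpha-factor and 248, 287, 307 and 275 CPM untreated. The groups overlapped, with the treated libraries of batch 1 below and those of batch 2 close to the untreated ones. Its change was not called in ∆Kar4 (-0.32, adjusted p = 0.061) and was -1.70 in WT, a difference of 1.39, SE 0.21, adjusted p = 3.41e-05. In batch 1 alone the ∆Kar4 decline was called, at -0.61, and so it was without ∆Kar4 alpha-factor replicate 3 (-0.44), ∆Kar4 untreated replicate 4 (-0.37) or WT alpha-factor replicate 3 (-0.31). CDC6 fell in ∆Kar4 as well, to 3.90, 1.84, 2.90 and 1.91 CPM with alpha-factor, against 9.65, 9.46, 5.96 and 4.82 CPM untreated; its response difference from WT was 0.052 with an SE of 0.36.

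PDS1 had 57.6, 57.6, 44.8 and 47.4 CPM in ∆Kar4 with alpha-factor, against 22.3, 18.1, 17.7 and 17.3 CPM untreated (1.47). Every treated ∆Kar4 library exceeded the treated WT ones, and the response differed by 0.83, SE 0.15, adjusted p = 0.000284. In batch 1 alone the differences of NRM1, PDS1 and PRI2 were not called. The cohesin subunit MCD1 rose in ∆Kar4 (0.55) and not in WT, a difference of 0.60 (adjusted p = 0.0297) that was not called in either batch alone. CDC21 and DUN1 rose more in ∆Kar4 than in WT, by differences of 0.81 and 0.48.

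In the polymerase and primase class, 6 of 7 genes were higher in ∆Kar4 than in WT after alpha-factor, all but POL3. PRI2 had 15.6, 16.0, 20.0 and 15.6 CPM in ∆Kar4 with alpha-factor and 7.49, 9.78, 7.60 and 6.31 CPM untreated. The treated ∆Kar4 libraries lay above all WT libraries, and the response differed by 0.74, SE 0.19, adjusted p = 0.00663. POL12 and POL1 also responded more (0.67 and 0.34); POL1 missed the threshold with library totals (adjusted p = 0.183) and without WT alpha-factor replicate 2 (adjusted p = 0.0753) or ∆Kar4 untreated replicate 4 (0.0833), among others. MCM3 was the licensing gene with a larger response (0.43), and CTF18 the fork gene (0.54).

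CTF4 stood apart as the gene with a smaller response in ∆Kar4. It had 45.3, 47.5, 53.4 and 53.4 CPM in ∆Kar4 with alpha-factor and 22.1, 29.5, 27.6 and 25.8 CPM untreated, against 67.3, 66.3, 81.2 and 67.9 CPM in WT with alpha-factor. All treated ∆Kar4 libraries lay below all treated WT libraries, and the response differed by -0.46, SE 0.12, adjusted p = 0.0083; within batch 1 or batch 2 alone the value was -0.47 or -0.43 and was not called.

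Library totals moved the median of all features by -0.23 in the ∆Kar4 response and gave 10 of the 47 genes lower, and ELG1 then changed sign (-0.023). In batch 1 alone the response difference was called larger for 7 genes, against 15 with both batches. The 7 M-phase markers, fixed with the gene lists, moved with this strain: 6 were higher and 1 lower in ∆Kar4 than in WT after alpha-factor, with sums of 297 to 315 CPM against 215 to 259 CPM, and none differed before it. Their sum in untreated cells was 198 to 206 CPM in ∆Kar4 and 194 to 218 CPM in WT. Of the 10 S-phase markers (8 histone genes, CLB5 and CLB6) none was called between ∆Kar4 and WT after alpha-factor. The part of either list in these results was not tested.

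The matching comparisons asked the same of Ste12. In ∆Ste12, 16 of the 47 genes were higher with alpha-factor and 2 lower (RNR2 and RNR4), against 17.6% and 14.6% of all features, and the median was 0.15. The 21 genes that rose in WT had a median of 0.23 in ∆Ste12 and 0.54 in WT. The 9 that fell in WT had a median of 0.11 in ∆Ste12 and -0.41 in WT, and none of them fell in ∆Ste12. Both sets were picked by their call in WT, which favours larger changes in WT, so these medians are descriptions and were not tested. The count of rises was 8 with library totals, 7 with no batch term and 4 in batch 1 alone, and 10 without untreated replicate 3 of ∆Ste12 or 9 without untreated replicate 4.

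The response was larger in ∆Ste12 than in WT for 10 genes and smaller for 10 (21.3% each), near the 18.3% and 17.6% of all features. Of the 10 with a larger value, 8 were genes that fell in WT (SWI4, YOX1, CDC6, MCM3, MCM6, POL2, POL3 and RNR1), and the others were YHP1 and POL1. Of the 10 with a smaller value, 9 were genes that rose in WT (among them PDS1, POL30, RFA1, RFA3, CDC9, CTF4, SMC3 and DUN1), and the last was RNR4. Most of the called differences therefore went against the WT response, and how often they did so over all features was not counted. The WT libraries enter both the WT response and the difference, so the overlap of these lists is no independent result.

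**Figure D3:**
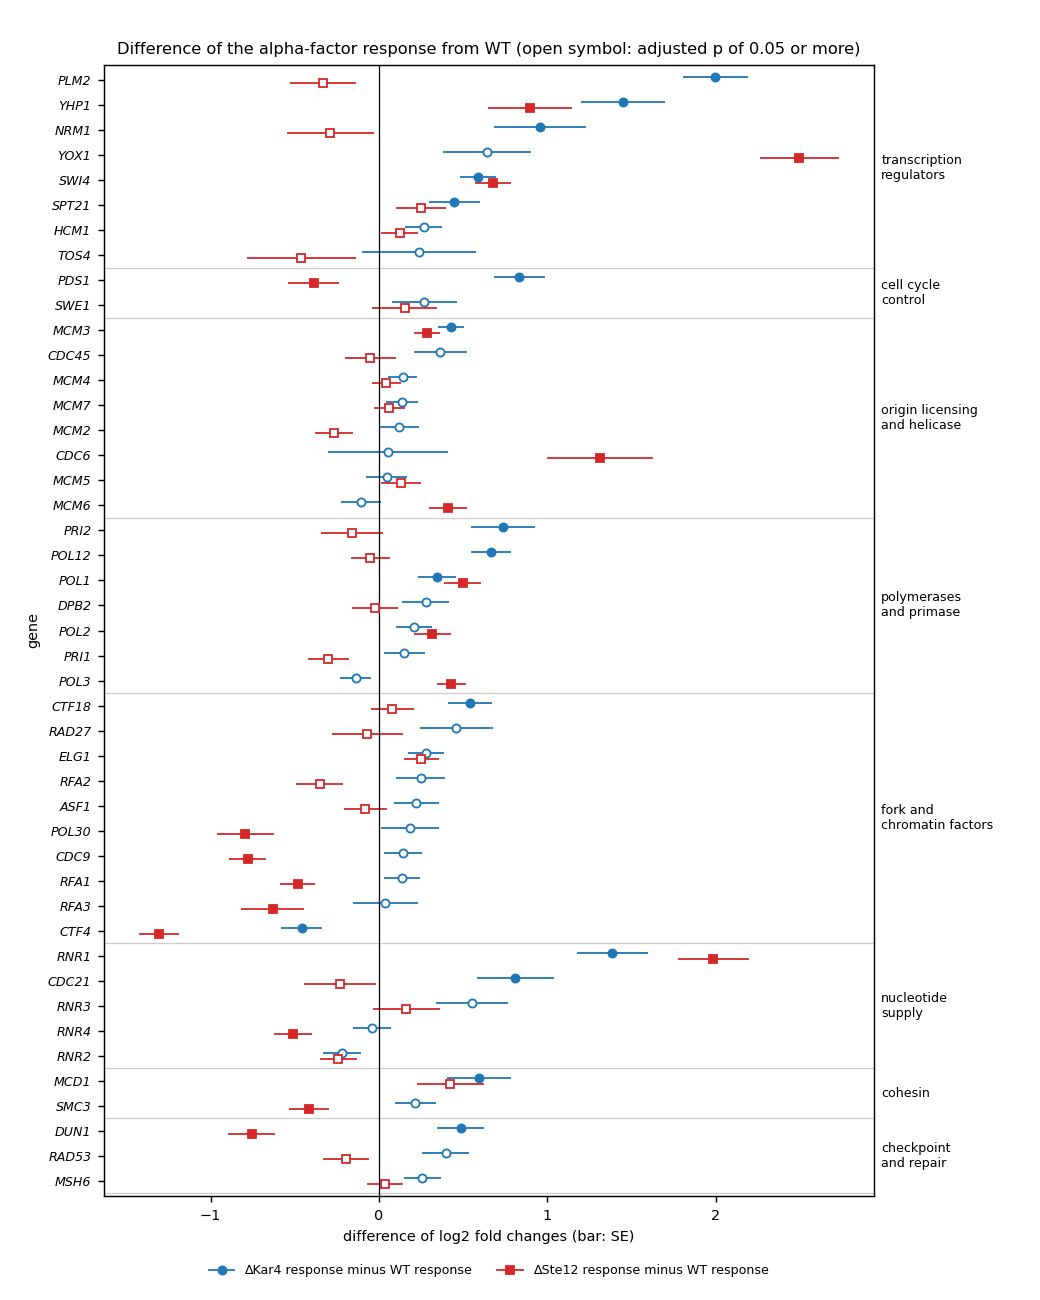
Alpha-factor response of ∆Kar4 minus that of WT (circles) and of ∆Ste12 minus that of WT (squares) for 45 of the 47 genes, as differences of log2 fold changes with SE bars; open symbols had an adjusted p of 0.05 or more. Both differences share the WT libraries; PLM2 lies far right for ∆Kar4, YOX1 far right and CTF4 far left for ∆Ste12.

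YOX1 had 47.5, 44.0, 71.2 and 75.0 CPM in ∆Ste12 with alpha-factor and 31.9, 30.0, 51.8 and 43.9 CPM untreated. Within each batch the treated libraries were above the untreated ones, a rise of 0.58 (adjusted p = 0.00384), where WT fell by 1.91. The responses differed by 2.50, SE 0.23, adjusted p = 1.39e-08, and all treated ∆Ste12 libraries exceeded all treated WT libraries. RNR1 had 341, 358, 533 and 533 CPM in ∆Ste12 with alpha-factor and 341, 366, 369.6 and 341 CPM untreated, so treated libraries lay above the untreated ones in batch 2 and among them in batch 1. Its response was not called in ∆Ste12 (0.28; called in batch 2 alone, at 0.59) and differed from that of WT by 1.99, SE 0.21, adjusted p = 8.54e-08.

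CDC6 had 5.48, 4.90, 4.86 and 4.88 CPM in ∆Ste12 with alpha-factor and 5.22, 8.61, 5.39 and 4.51 CPM untreated. Its response was not called there (-0.23, adjusted p = 0.367) and differed from the WT decline by 1.31, SE 0.31, adjusted p = 0.00212; in batch 1 alone this was 1.28 with an adjusted p of 0.0808. SWI4 had 151, 184, 166 and 169 CPM in ∆Ste12 with alpha-factor and 153, 153, 156 and 144 CPM untreated, above WT in both conditions (1.05 and 0.37). The catalytic polymerase subunits POL1, POL2 and POL3 were higher in ∆Ste12 than in WT both with alpha-factor (0.98, 0.83 and 0.70) and untreated (0.49, 0.51 and 0.26).

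CTF4 had 32.9, 33.8, 34.6 and 32.1 CPM in ∆Ste12 with alpha-factor and 30.6, 35.2, 32.8 and 29.4 CPM untreated. The groups overlapped and the response was not called (0.061), and the difference from the WT response was -1.31, SE 0.12, adjusted p = 7.99e-09. POL30, CDC9 and DUN1 rose in ∆Ste12 by 0.48, 0.37 and 0.24, with differences from WT of -0.79, -0.78 and -0.76; the rise of DUN1 was lost without any of 6 of the 8 ∆Ste12 libraries, among other alternatives (adjusted p of up to 0.179 without untreated replicate 3).

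PLM2 and PDS1, which stood out in ∆Kar4, were low in ∆Ste12. PLM2 had 6.59, 4.15, 5.47 and 4.10 CPM in ∆Ste12 with alpha-factor and 5.94, 4.97, 4.62 and 4.98 CPM untreated (-0.021, not called). PDS1 had 23.4, 20.6, 19.9 and 17.2 CPM with alpha-factor and 21.8, 15.4, 16.1 and 14.7 CPM untreated (0.25, adjusted p = 0.0666). YHP1 differed from both in that it rose in ∆Ste12 too, with 15.8, 10.6, 18.3 and 17.8 CPM with alpha-factor and 7.28, 5.24, 9.32 and 6.53 CPM untreated (1.11; difference from WT 0.90, adjusted p = 0.00689). PRI2, NRM1 and SMC3 with alpha-factor averaged 10.9 ± 0.832, 6.60 ± 1.81 and 28.4 ± 5.58 CPM in ∆Ste12, against 9.76 ± 0.769, 8.47 ± 1.54 and 27.3 ± 6.24 CPM in WT (SD, n = 4 each).

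Levels in ∆Ste12 also differed from WT before alpha-factor, with 14 of the 47 genes higher and 3 lower (YHP1, SWE1 and MCD1), against 10.6% and 11.9% of all features. MCD1 was the furthest, at 6.06 ± 0.803 CPM in ∆Ste12 and 11.8 ± 2.72 CPM in WT (-0.94, adjusted p = 4.09e-05). After alpha-factor 18 genes were higher and 12 lower, against 30.9% and 28.2% of all features. These counts depend on the scaling. Library totals brought the median of all features to 0.21 untreated and 0.36 with alpha-factor. They gave 26 higher and 1 lower untreated and 31 higher and 3 lower with alpha-factor. RFA1 changed sign then, at 0.14 in place of -0.18 with alpha-factor, and PLM2, PDS1, POL30, CDC9 and DUN1 were no longer called lower. For the response difference the median of all features was then 0.16. The count of 18 higher with alpha-factor fell to 11 without WT alpha-factor replicate 2 or 4.

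The S-phase cyclin CLB6, one of the 10 S-phase markers, moved with this strain, at 14.5, 12.5, 30.1 and 26.3 CPM in ∆Ste12 with alpha-factor, against 2.36, 1.18, 3.22 and 3.68 CPM in WT. Of the other S-phase markers, CLB5 and HHF2 were higher and HTA1 lower in ∆Ste12 with alpha-factor, and 6 were not called; the 10 summed to 262 to 438 CPM in ∆Ste12 and 322 to 383 CPM in WT. The part of these markers in the results was not tested. All of the CLN genes, mutant in every strain per the labels, still had reads: CLN1 had 169, 166, 229 and 229 CPM in ∆Ste12 with alpha-factor and 80.0, 71.3, 94.9 and 87.4 CPM in WT. CLN3, whose reads may also come from GAL-CLN3, had 70.8, 64.4, 50.5 and 57.8 CPM in ∆Kar4 with alpha-factor, 111, 123, 119 and 116 CPM in ∆Ste12 and 82.1, 58.6, 96.6 and 134 CPM in WT, and was lower in ∆Kar4 than in WT (-0.58 with alpha-factor and -0.67 untreated). The CLN genes did not all move this way: with alpha-factor CLN1 was not called between ∆Kar4 and WT (-0.045), and another CLN gene was higher in ∆Kar4. The labels do not give the mutated part of the CLN genes, the reads say nothing of their proteins, and their part in the results was not tested.

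Both deletions were set against the same WT libraries, so their values are given side by side with no test of overlap. RNR1 differed from the WT response by 1.39 in ∆Kar4 and 1.99 in ∆Ste12, SWI4 by 0.59 and 0.68, YHP1 by 1.45 and 0.90, and CTF4 by -0.46 and -1.31. YOX1 differed by 0.64 (not called by edgeR, called by DESeq2) in ∆Kar4 and 2.50 in ∆Ste12, and CDC6 by 0.052 (not called) and 1.31. PDS1 and DUN1 were called in opposite directions, at 0.83 and 0.48 in ∆Kar4 and -0.39 and -0.76 in ∆Ste12; the ∆Ste12 call of PDS1 was lost in either batch alone, with library totals and without any single WT library of batch 1, among others (adjusted p = 0.498 in batch 2 alone). Of the 47 genes, 11 were called neither in the WT response nor in either response difference, although some of them differed from WT in level.

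Loss of Ime4 was compared in batch 3. There alpha-factor raised 17 of the 47 genes in ime4 and lowered 9 (27.6% and 27.9% of 6156 features), and raised 25 and lowered 8 in WT (27.4% and 27.7%). Library totals brought the median of all features to -0.29 in ime4 and -0.15 in WT. The rises were then 8 in ime4 and 10 in WT, and MCM2 and RFA1 had values of -0.0052 and -0.015 in ime4. The rises in WT fell to 11 without alpha-factor replicate 2, and the 2 counts were not tested against each other. Directly compared, 0 of the 47 genes were called between ime4 and WT untreated (edgeR; 0% and 0.0325% of all features higher and lower; 4 genes at an unadjusted p under 0.05), 0 with alpha-factor (0.195% and 0.0325%; 6 genes), and 0 in the response (0% and 0.0162%; 4 genes). DESeq2 also called 0 in each of these comparisons. For the counts at an unadjusted p, the share of all features is not given here. YOX1 had 18.5 and 19.6 CPM in ime4 with alpha-factor and 64.0 and 50.4 CPM untreated, and in WT 16.1 and 18.1 CPM with alpha-factor and 81.5 and 62.7 CPM untreated. RNR1 had 151 and 175 CPM in ime4 with alpha-factor and 358 and 344 CPM untreated, and in WT 129.9 and 152 CPM with alpha-factor and 331 and 354 CPM untreated. Both genes were low with alpha-factor and high without it in both strains. RFA2 was among the genes with an unadjusted p under 0.05 in the response difference of ime4 (-0.50, SE 0.21, adjusted p = 0.615), but none passed after adjustment.

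The 3 sets of WT libraries allowed the response to be compared between batches. Batch 4, whose untreated cells waited 60 min as well, gave 16 genes higher and 12 lower with alpha-factor (28.9% and 28.9% of 6272 features), with a median of 0.046. Of the 47 genes, 13 rose and 8 fell in batch 4, batch 3 and batches 1 and 2 alike. The share of all features called alike in these sets was not counted, so these numbers have no background beside them. The 8 declines were those of SWI4, YOX1, CDC6, MCM3, MCM5, MCM6, POL3 and RNR1. The 13 rises included TOS4, PDS1, MCM2, POL30, RFA1, RFA2, CDC9, CTF4, SMC3, RAD53 and DUN1. No gene was called in opposite directions in any of these sets.

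**Figure D4:**
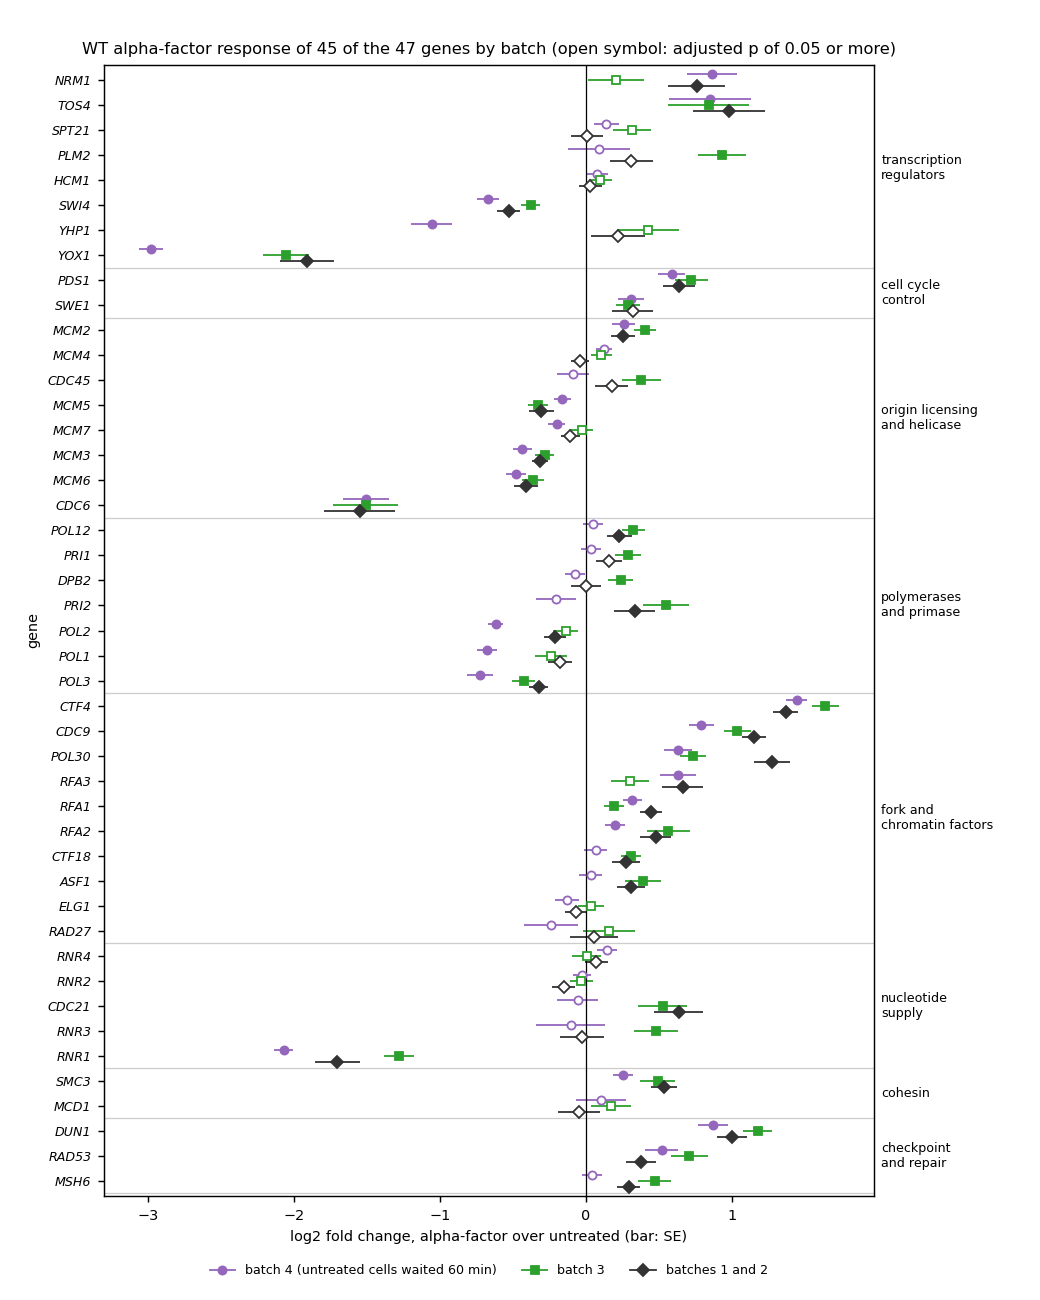
Log2 fold change of alpha-factor over untreated in WT for 45 of the 47 genes in batch 4, whose untreated cells waited 60 min (circles), in batch 3 (squares) and in batches 1 and 2 (diamonds), with SE bars and open symbols where the adjusted p was 0.05 or more. YHP1 lies at -1.06 in batch 4 and above 0 in the other batches, and YOX1 lies furthest left in batch 4.

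The response of batch 4 was lower than that of batches 1 and 2 for 8 genes and higher for 0, against 7.69% and 8.84% of 6270 features. They were YHP1 (-1.28), YOX1 (-1.07), CDC21 (-0.70), POL30 (-0.65), POL1 (-0.51), POL2 (-0.41), POL3 (-0.41) and CDC9 (-0.37). YHP1 had 8.31 and 9.32 CPM with alpha-factor and 17.6 and 19.2 CPM after 60 min without it (-1.06, SE 0.14, adjusted p = 0.000308). In batches 1 and 2 its WT libraries spanned 10.6 to 14.8 CPM with alpha-factor and 8.24 to 13.1 CPM untreated. YOX1 had 7.67 and 7.41 CPM with alpha-factor and 61.0 and 57.9 CPM untreated in batch 4 (-2.98). RNR1, with 109 and 101 CPM with alpha-factor and 449 and 434 CPM untreated, fell by 2.07, and its response did not differ beyond its error from that of batches 1 and 2 (-0.37, adjusted p = 0.289). The wait of the untreated cells and the batch cannot be told apart, and the count of 8 was 3 without alpha-factor replicate 1 of batch 4, 4 without alpha-factor replicate 2, and 5 without untreated replicate 2 of batch 4 or alpha-factor replicate 3 of batches 1 and 2.

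Genes of the same pathways outside the 47 were counted for comparison. Of 40 other replication genes (origin recognition, helicase activation, clamp loading, fork protection and others), 7 rose and 9 fell in WT of batches 1 and 2 with alpha-factor (against 29% and 30% of all features), with a median of -0.054. The clamp loader subunit RFC4 changed most (-1.14), followed by the cohesin acetyltransferase ECO1 (0.95) and the fork protection gene CSM3 (0.87). In ∆Kar4 10 rose and 11 fell (33% and 32.8% of all features), and in ∆Ste12 3 rose and 4 fell (17.6% and 14.6%). After alpha-factor 11 of the 40 were higher and 3 lower in ∆Kar4 than in WT, and 17 higher and 6 lower in ∆Ste12 than in WT. Of all features, 16.8% and 21.1% were higher and lower in ∆Kar4, and 30.9% and 28.2% in ∆Ste12, where the counts of the 47 genes depended on the scaling; the 40 were not recounted under other scalings.

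Of 5 other G1/S regulators, WHI5, the inhibitor of SBF, rose in WT of batches 1 and 2 (0.88, SE 0.21, adjusted p = 0.00106), as did STB1 (0.31), while MCM1 (-0.37) and MBP1 fell (-0.25). Of 4 regulators of ribonucleotide reductase, HUG1 (0.85) and SML1 (0.37), both inhibitors of the enzyme, rose there and the repressor RFX1 fell (-0.23). In batch 4 RFX1 rose (0.25, adjusted p = 0.0141), a difference of 0.48 (adjusted p = 0.00728), and HUG1 was not called in batch 4 (0.21) or batch 3 (0.06). Of the 10 S-phase markers, 4 fell in WT, with CLB6 furthest (-1.35), and 0 rose.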

How the data were processed

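Total RNA from G1-arrested yeast was sequenced after rRNA removal with a stranded kit and 50-base reads, per the labels. The authors deposited expected counts per feature, of which 24.5% were whole numbers; STAR, featureCounts and sacCer3 are named in the submitters' processing notes, and the strand setting and treatment of multimapping reads are not given in the sources used here. The labels title the batch 3 columns of a group as replicates 1 to 4. Columns 1 and 3, and columns 2 and 4, differed by less than sampling noise in all 8 pairs. Their chi-square per degree of freedom was 0.445 to 0.703. Other pairs had 5.28 to 73.1 (30 pairs within a batch) and 32.5 to 177 (24 pairs across batches). Each near-identical pair was therefore averaged and taken as 1 library, so 44 columns gave 36 libraries.

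Values were rounded, filtered with edgeR's filterByExpr (minimum count 10, minimum total 15), scaled by TMM and fitted with edgeR's quasi-likelihood test (edgeR 4.0.16 and limma 3.58.1 in R 4.3.3). ∆Kar4, ∆Ste12 and WT of batches 1 and 2 shared a fit with a batch term, and ime4 and WT of batch 3 and WT of batch 4 had fits of their own. The response of batch 4 was compared with that of batches 1 and 2 in a joint fit. P-values were adjusted over all features tested (Benjamini-Hochberg, threshold 0.05), and a log2 fold change is alpha-factor over untreated, or mutant over WT. The fits were tested on simulated data. Alternatives were library totals, DESeq2 1.42.0, no filter, no batch term, each batch alone, the replicate number as a block, each library left out, the compared groups alone, and other uses of the batch 3 columns.

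The 47 genes and the gene lists were chosen with earlier results of these data known. Genes with values per library were the largest called WT change in each role, the 5 largest called response differences of each mutant, and the deleted genes; SWI4, and the promoter of POL30, were added after their values were seen, and in ime4 no gene met the rule. Some of the genes and markers that are counted are not reported here by name. Promoters were read from the RefSeq R64 genome, up to 300 bases before each start codon; the transcript starts are not annotated there, so a printed stretch stops 101 bases before the start codon.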

Additional observations from a re-analysis of the deposited data

Results flagged for a closer look

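In 15 of the 282 groups of 4 libraries and genes compared, 1 library stood apart from the other 3 by Dixon's 95% criterion. Chance flags about 1 in 20 groups. Any flags of genes not reported here by name are left out of the 15, though their groups are in the 282. In ∆Kar4 with alpha-factor, these were PRI2 at 20.0 CPM in replicate 3 and RNR4 at 624 CPM in replicate 3. In untreated ∆Kar4, these were PLM2 at 5.61 CPM in replicate 2 and PDS1 at 22.3 CPM in replicate 1. In ∆Ste12 with alpha-factor, these were CDC6 at 5.48 CPM in replicate 1, CDC9 at 25.1 CPM in replicate 2 and ELG1 at 40.3 CPM in replicate 4. In untreated ∆Ste12, these were HCM1 at 90.0 CPM in replicate 2, PRI2 at 8.40 CPM in replicate 4 and ELG1 at 45.4 CPM in replicate 1. In WT with alpha-factor, these were MCM5 at 74.5 CPM in replicate 3, CDC9 at 29.2 CPM in replicate 2 and CTF4 at 81.2 CPM in replicate 3. In untreated WT, these were CDC21 at 7.57 CPM in replicate 2 and MCD1 at 15.9 CPM in replicate 1. The WT value of CTF4 and the ∆Kar4 value of PRI2 were the highest of their groups, and leaving those libraries out kept both ∆Kar4 response differences called. Without untreated replicate 1 of WT, the ∆Kar4 response difference of MCD1 was no longer called (0.50, adjusted p = 0.0673).

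The response to alpha-factor differed between strains, by the test of the difference, for 16 of the 47 genes in ∆Kar4. The 5 furthest were PLM2 at 2.00, YHP1 at 1.45, RNR1 at 1.39, NRM1 at 0.96 and PDS1 at 0.83. It differed for 20 genes in ∆Ste12, with YOX1 at 2.50, RNR1 at 1.99, CDC6 at 1.31 and CTF4 at -1.31. The WT response of batch 4 differed from that of batches 1 and 2 for 8 genes, with YHP1 at -1.28, YOX1 at -1.07, CDC21 at -0.70, POL30 at -0.65 and POL1 at -0.51. These are differences of log2 fold changes.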

How the results depend on the processing

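Single-gene values kept their side of the threshold in 17751 combinations of gene, comparison and alternative, while 626 lost a call, 278 gained one and 4 changed sign. Signs were compared only for genes called in the main fit, so sign changes of uncalled genes are not counted. With library totals, 14 genes fell in WT, 10 fell in ∆Kar4, 8 rose in ∆Ste12, 10 rose in WT of batch 3 and 8 in ime4, and 3 responded less in batch 4; between strains it gave 0 higher in untreated ∆Kar4, 26 higher and 1 lower in untreated ∆Ste12, and 31 higher and 3 lower in ∆Ste12 with alpha-factor. The 4 sign changes, all under library totals, were ELG1 in ∆Kar4 (-0.023), RFA1 in ∆Ste12 against WT with alpha-factor (0.14), and MCM2 (-0.0052) and RFA1 (-0.015) in ime4. In batch 1 alone, 13 rose in WT and 4 in ∆Ste12, 7 responded more and 0 less in ∆Kar4, 5 responded less in batch 4, and 0 were higher and 1 lower in untreated ∆Kar4. In batch 2 alone, 1 fell in ∆Ste12, 0 responded less and, untreated, 0 were higher in ∆Kar4, and 8 untreated and 11 with alpha-factor were higher in ∆Ste12. With no batch term, 7 rose in ∆Ste12, 0 were higher in untreated ∆Kar4 and 4 responded less in batch 4. DESeq2, and the compared groups alone, gave 1 lower in untreated ∆Kar4; the compared groups alone gave 1 lower in untreated ∆Ste12. Batch 3 columns taken as separate replicates gave 8 higher and 3 lower in untreated ime4, 9 and 3 with alpha-factor, and 2 and 4 in the response. Within each pair these columns differ by less than sampling noise. The cause of these changes was not tested.

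Leaving out 1 library gave 9 to 16 rises in ∆Ste12, 0 to 2 genes higher and 0 to 1 lower in untreated ∆Kar4, 1 to 3 lower in untreated ∆Ste12 and 11 to 18 higher with alpha-factor, 11 to 25 rises in WT of batch 3, 0 to 1 higher in untreated ime4, 10 to 15 rises in batch 4 and 3 to 9 weaker responses in batch 4. Of the called genes, 6 of 30 lost the call without some library in WT, 2 of 39 in ∆Kar4, 8 of 18 in ∆Ste12, 3 of 16 in the ∆Kar4 difference and 2 of 20 in the ∆Ste12 difference. It was 14 of 33 in WT of batch 3, 9 of 26 in ime4, 9 of 28 in batch 4 and 6 of 8 in its difference. Over all alternatives, 11 of 30 lost the call in WT, 9 of 39 in ∆Kar4 and 14 of 18 in ∆Ste12. For the response differences it was 9 of 16 in ∆Kar4 and 8 of 20 in ∆Ste12. The replicate numbers did not pair the samples by the check used: deviations of same-numbered libraries from their group means correlated at -0.26 in ∆Kar4 of batch 2 and -0.40 in ime4, and at 0.15 to 0.48 elsewhere. With the replicate block, 21 genes rose and 9 fell in WT, 15 responded more and 1 less in ∆Kar4, 10 and 10 in ∆Ste12, and 14 rose in ∆Ste12. With the ime4 numbers crossed, an alternative chosen after seeing the data, 21 rose and 10 fell in ime4. Depth limited the genes of low level most: CDC6 had as few as 8 counts in a treated WT library.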
